A study of Caenorhabditis elegans with 24 samples.

Results

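The mitochondrial unfolded protein response is the programme by which a cell answers misfolded or unimported protein in its mitochondria with more mitochondrial chaperone and protease from nuclear genes. In *C. elegans* the transcription factor ATFS-1 is normally imported into mitochondria and degraded there, and under stress it enters the nucleus, where the homeodomain protein DVE-1 and the ubiquitin-like protein UBL-5 also act. Transcription of *hsp-6* and *hsp-60* is the usual readout of the response in living worms. Of the 20191 genes in the expression table, 8 were taken by name as chaperones, regulators, peptide exporter and proteases of this response: *hsp-6*, *hsp-60*, *atfs-1*, *dve-1*, *ubl-5*, *haf-1*, *clpp-1* and *lonp-1*. The rule used names and no measured value, and all 8 were among the 12771 genes expressed well enough to be tested.

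RNA of whole worms was sequenced in 24 libraries of 5 groups, all collected on day 3 and fed from the egg on HT115 bacteria carrying the empty vector pL4440. The groups were wt animals of strain NV48 on 100 µM quercetin (a plant flavonoid), NV48 on 100 µM lutein (a plant carotenoid), *abl-1* KO animals of strain NV50 on 100 µM quercetin, untreated *abl-1* KO animals, and untreated wt animals. Untreated animals received the solvent, 0.5% DMSO with 0.005% Tween 80. Each group had 5 libraries and the lutein group had 4. The study's methods call the replicates biological, each a pellet of many worms. Both strains were recovered from crosses of the strains XR1 and GRU102, and NV50 lacks *abl-1*, the worm gene for the Abl tyrosine kinase. Each genotype was 1 strain, so a strain effect and an effect of *abl-1* cannot be told apart.

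Levels are RPKM, the reads of a gene per kilobase of its exons, scaled to the mapped reads of its library, so levels of different genes can be set side by side. Depth was estimated at 27.4 to 45.3 M mapped reads per library (median 33.6 M), which gave a median of 21117 reads for *hsp-6* and 312 for *haf-1*, the member with the fewest. The deleted gene went with its label: *abl-1* was at 1.90 RPKM in quercetin-fed and 1.93 RPKM in untreated *abl-1* KO animals, against 7.19 RPKM on quercetin, 7.19 RPKM on lutein and 7.28 RPKM without treatment in wt animals. It was not the only gene so lowered. *npl-4.2*, named here outside the rule, was at 6.85 RPKM in quercetin-fed and 7.48 RPKM in untreated *abl-1* KO animals. In wt animals it was at 76.0 RPKM on quercetin, 73.6 RPKM on lutein and 74.6 RPKM without treatment. The part of either gene in the strain differences below was not tested. Summed major sperm protein RNA (31 genes) was uneven, with 18.1 to 442 RPKM (median 272) in quercetin-fed *abl-1* KO animals, where 4 of 5 libraries were above 100 RPKM, and 11.8 to 620 RPKM (median 23.6) in untreated *abl-1* KO animals. In wt animals it was at 8.01 to 337 RPKM (median 96.7) on quercetin, 19.4 to 129 RPKM (median 29.4) on lutein and 4.54 to 113 RPKM (median 39.5) without treatment. Markers of germline, intestine, muscle and neurons were present in every library, as whole worms would have. In such bulk RNA, fewer cells of a type and less RNA per cell cannot be told apart.

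The 2 chaperones stood far above the other members. *hsp-6*, the mitochondrial Hsp70 that pulls imported proteins into the matrix and folds them, averaged 256 RPKM over the 24 libraries, and *hsp-60*, the chamber-forming chaperonin of the matrix, averaged 231 RPKM. The small protein UBL-5 and the transcription factor ATFS-1 came next, with 66.1 RPKM for *ubl-5* and 59.2 RPKM for *atfs-1*. The matrix proteases followed at 39.4 RPKM for *lonp-1* and 37.5 RPKM for *clpp-1*. The peptide transporter gene *haf-1* and the regulator *dve-1* were at 4.41 and 3.36 RPKM.

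This order was close to fixed across libraries. *hsp-6* was above *hsp-60* in 24 of 24 libraries, by a ratio of 1.03 to 1.24, and the 3 large steps down the order (from *hsp-60* to *ubl-5*, from *atfs-1* to *lonp-1* and from *clpp-1* to *haf-1*) also held in 24 of 24. The close neighbours changed places: *ubl-5* exceeded *atfs-1* in 22, *haf-1* exceeded *dve-1* in 23 and *lonp-1* exceeded *clpp-1* in 19 of 24 libraries. For *lonp-1* and *clpp-1* the ratio ran between 0.941 and 1.18, so their levels were not separated by more than their spread.

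**Figure D1:**
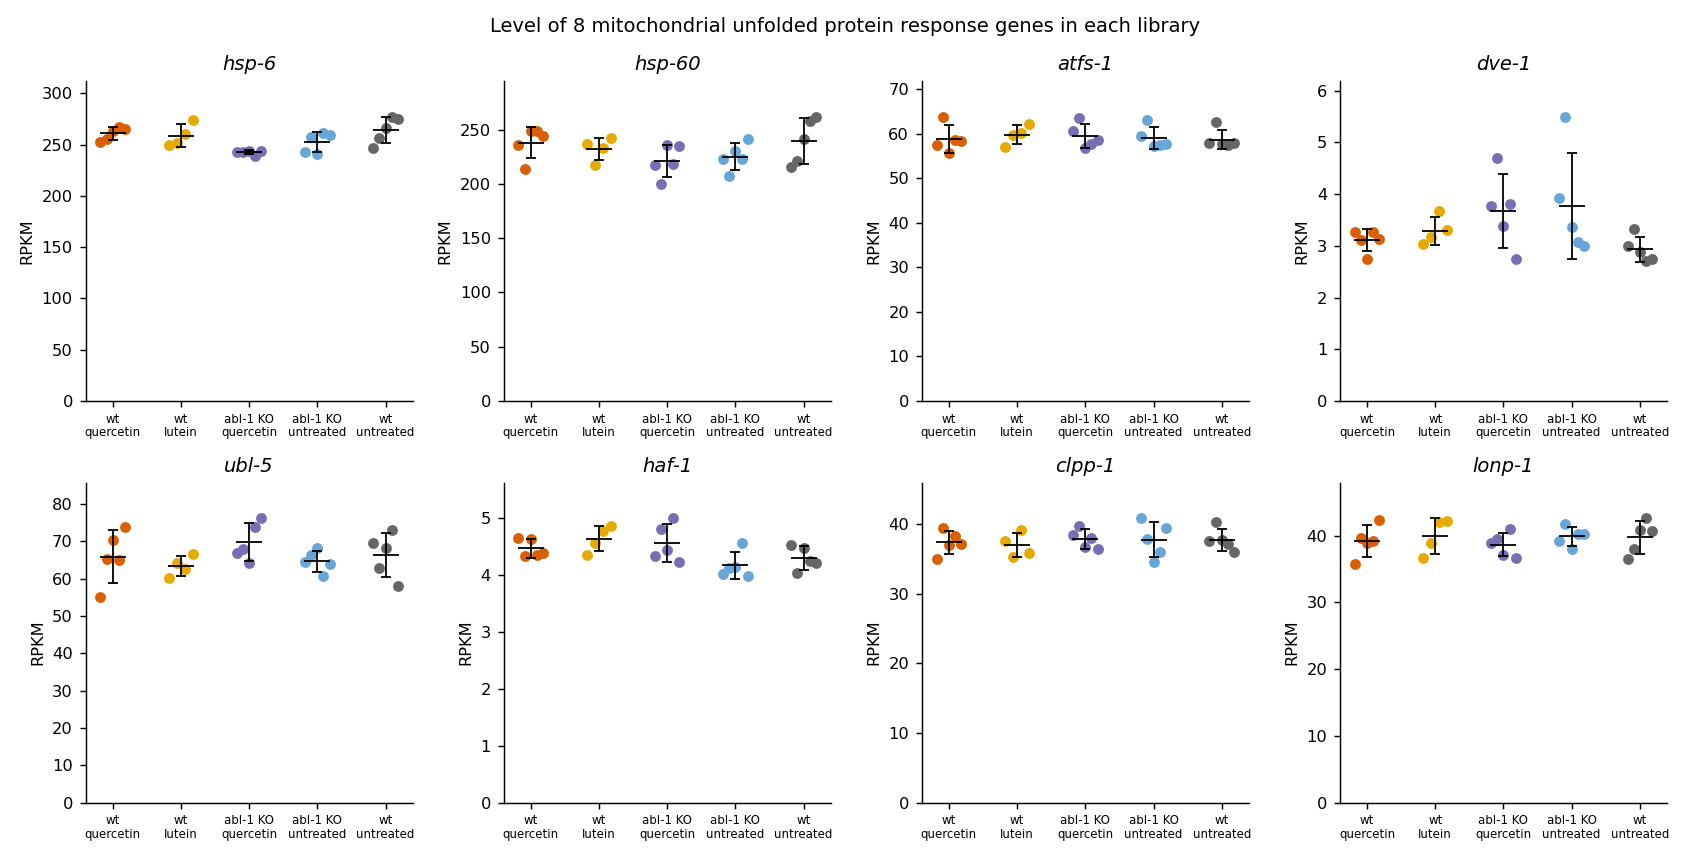
RPKM of each member (vertical axis, from 0) in every library of the 5 groups (horizontal axis); points are libraries and black bars the mean and SD. The libraries of quercetin-fed *abl-1* KO animals in the *hsp-6* panel (239 to 244 RPKM) lie below those of all 3 wt groups, on quercetin (253 to 267 RPKM), on lutein (249 to 274 RPKM) and untreated (247 to 277 RPKM), and no other pair of groups that the comparisons set side by side is apart.

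No member differed between quercetin-fed and untreated wt animals beyond the spread of the libraries. By limma with Benjamini-Hochberg adjustment over all tested genes, 0 of 8 members were called at an adjusted p of at most 0.05, where 0% of the 12771 tested genes were called, and no member reached an unadjusted p or an exact permutation p under 0.05. The libraries of no member separated between the groups, whereas 0.329% of tested genes had groups that did not overlap. The median log2 fold change of the members was -0.01, with 3 above and 5 below their untreated level, beside a median of 0.01 over all tested genes. Leaving aside *dve-1*, the 95% intervals of the members' fold changes ran between 0.900 and 1.12, so a rise or fall beyond these bounds was outside the interval of each of the other 7 genes. Libraries of these groups that share a replicate number deviated together, and these tests and intervals took no account of it. With alternative settings, a replicate block by number among them, the lowest limma adjusted p of any member was 0.999. Within numbers the exact sign-flip permutation p of each member was at least 0.0625.

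*hsp-6* itself was at 252.9, 255.8, 263.2, 266.7 and 265.6 RPKM in wt animals on quercetin, against 246.7, 256.2, 265.8, 277.3 and 274.6 RPKM in untreated wt animals. The quercetin values lay inside the range of the untreated ones, with a log2 fold change of -0.02 (SE 0.03, limma adjusted p = 1). *hsp-60* was at 235.7, 213.7, 248.2, 248.3 and 243.9 RPKM on quercetin, against 215.2, 220.6, 240.8, 258.2 and 261.9 RPKM untreated. Both groups had low and high libraries, and the log2 fold change was -0.01 (SE 0.06, limma adjusted p = 1).

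*atfs-1*, the transcription factor of the response, averaged 58.8 ± 3.07 RPKM with quercetin and 58.7 ± 2.21 RPKM without it (SD, n = 5 each). *ubl-5* averaged 65.8 ± 7.11 RPKM with quercetin and 66.3 ± 5.91 RPKM without it (SD, n = 5 each). *dve-1* was at 3.28, 3.11, 2.74, 3.27 and 3.14 RPKM on quercetin, against 3.01, 3.32, 2.88, 2.71 and 2.75 RPKM untreated. The *dve-1* groups overlapped, and its interval was the widest of the 8, a fold change of 0.881 to 1.26.

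On the export and degradation side, *haf-1*, the inner membrane transporter that lets peptides out of the matrix, averaged 4.46 ± 0.16 RPKM with quercetin and 4.30 ± 0.21 RPKM without it (SD, n = 5 each). *clpp-1*, the proteolytic subunit of the matrix ClpXP protease, averaged 37.3 ± 1.67 and 37.7 ± 1.61 RPKM in the same order. *lonp-1*, the matrix Lon protease, averaged 39.2 ± 2.37 RPKM with quercetin and 39.7 ± 2.44 RPKM without it (SD, n = 5 each). The 3 log2 fold changes lay between -0.02 and 0.05. Within the replicate numbers, taken here as pairing these groups because their deviations correlated, *haf-1* was higher on quercetin in 5 of 5 pairs. The exact sign-flip permutation p was 0.0625, the smallest that 5 pairs allow. With a replicate block the limma adjusted p of *haf-1* was 0.999.

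Lutein also gave no call among the members in wt animals: 0 of 8 members by limma, where 0% of tested genes were called, none at an unadjusted p under 0.05, and none with separated groups, where 0.822% of tested genes separated. *hsp-6* was at 249.3, 251.1, 260.2 and 273.8 RPKM on lutein, inside the range of untreated wt animals, with a log2 fold change of -0.03 (SE 0.03). *hsp-60* was at 236.3, 217.6, 232.8 and 241.7 RPKM on lutein, also inside the untreated range, with a log2 fold change of -0.04 (SE 0.06). The widest differences were those of the 2 members of lowest level. *dve-1* averaged 3.29 ± 0.274 RPKM on lutein and 2.93 ± 0.247 RPKM untreated (SD, n = 4 and 5, exact permutation p = 0.0714). *haf-1* averaged 4.63 ± 0.22 RPKM on lutein and 4.30 ± 0.21 RPKM untreated (SD, n = 4 and 5, exact permutation p = 0.0635). Both tests are two-sided over 126 regroupings, and both comparisons had a limma adjusted p of 1. Within replicate numbers each of the 2 genes was higher on lutein in 3 of 4 pairs. The exact sign-flip permutation p was 0.375 for *dve-1* and 0.25 for *haf-1*.

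Quercetin and lutein were given at one dose, 100 µM, and were compared with each other in wt animals. Again 0 of 8 members were called by limma, where 0% of tested genes were, none had an unadjusted p under 0.05, and none had separated groups, where 0.626% of tested genes did. The fold of quercetin over lutein had a 95% interval of 0.960 to 1.06 for *hsp-6*, 0.938 to 1.12 for *hsp-60* and 0.928 to 1.04 for *atfs-1*. These intervals, from the fit without a replicate block, are bounds on a difference between the compounds and do not show that the compounds act alike. Both compound comparisons share the same untreated wt libraries.

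In *abl-1* KO animals quercetin again gave 0 of 8 calls by limma, where 0% of tested genes were called, and 0 of 8 separated members, where 0.219% of tested genes separated. *hsp-6* was at 242.8, 242.8, 243.8, 239.3 and 243.4 RPKM in *abl-1* KO animals on quercetin, against 243.1, 257.5, 241.0, 261.6 and 259.2 RPKM in untreated *abl-1* KO animals. The quercetin libraries were packed at or under the low end of the untreated range, with a log2 fold change of -0.06 (SE 0.03, limma adjusted p = 1) and an exact permutation p of 0.103. Their SD was 1.82 RPKM, against 6.16 to 12.76 RPKM in the other 4 groups. *hsp-60* was at 217.2, 199.6, 235.8, 217.8 and 234.7 RPKM on quercetin, against 222.6, 207.3, 230.3, 222.4 and 241.2 RPKM untreated, and the groups overlapped along their whole range.

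In this comparison 1 member reached an unadjusted limma p under 0.05, as did 1.82% of all tested genes. *haf-1* was at 4.33, 4.81, 4.44, 4.99 and 4.22 RPKM in *abl-1* KO animals on quercetin, against 4.01, 4.13, 4.13, 4.56 and 3.99 RPKM in untreated *abl-1* KO animals. Only untreated replicate 4 reached into the quercetin range. The log2 fold change was 0.12 (SE 0.05, limma unadjusted p = 0.0405, adjusted p = 1), the exact permutation p was 0.0714, and without that replicate the log2 fold change was 0.15. The exons of *haf-1* share 64 bp with *C30H6.9* on the opposite strand, and whether reads were counted by strand is not given in the sources used here. *ubl-5* averaged 69.8 ± 5.05 RPKM with quercetin and 64.6 ± 2.82 RPKM without it (SD, n = 5 each), with an exact permutation p of 0.0873.

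The quercetin effect was not shown to differ between *abl-1* KO and wt animals for any member. Of the 8, 0 were called by limma for this difference, where 0% of tested genes were called, and 0 had an unadjusted p under 0.05. The difference of the log2 fold changes was -0.04 for *hsp-6* (SE 0.05), -0.02 for *hsp-60* (SE 0.08) and 0.12 for *ubl-5* (SE 0.10).

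**Figure D2:**
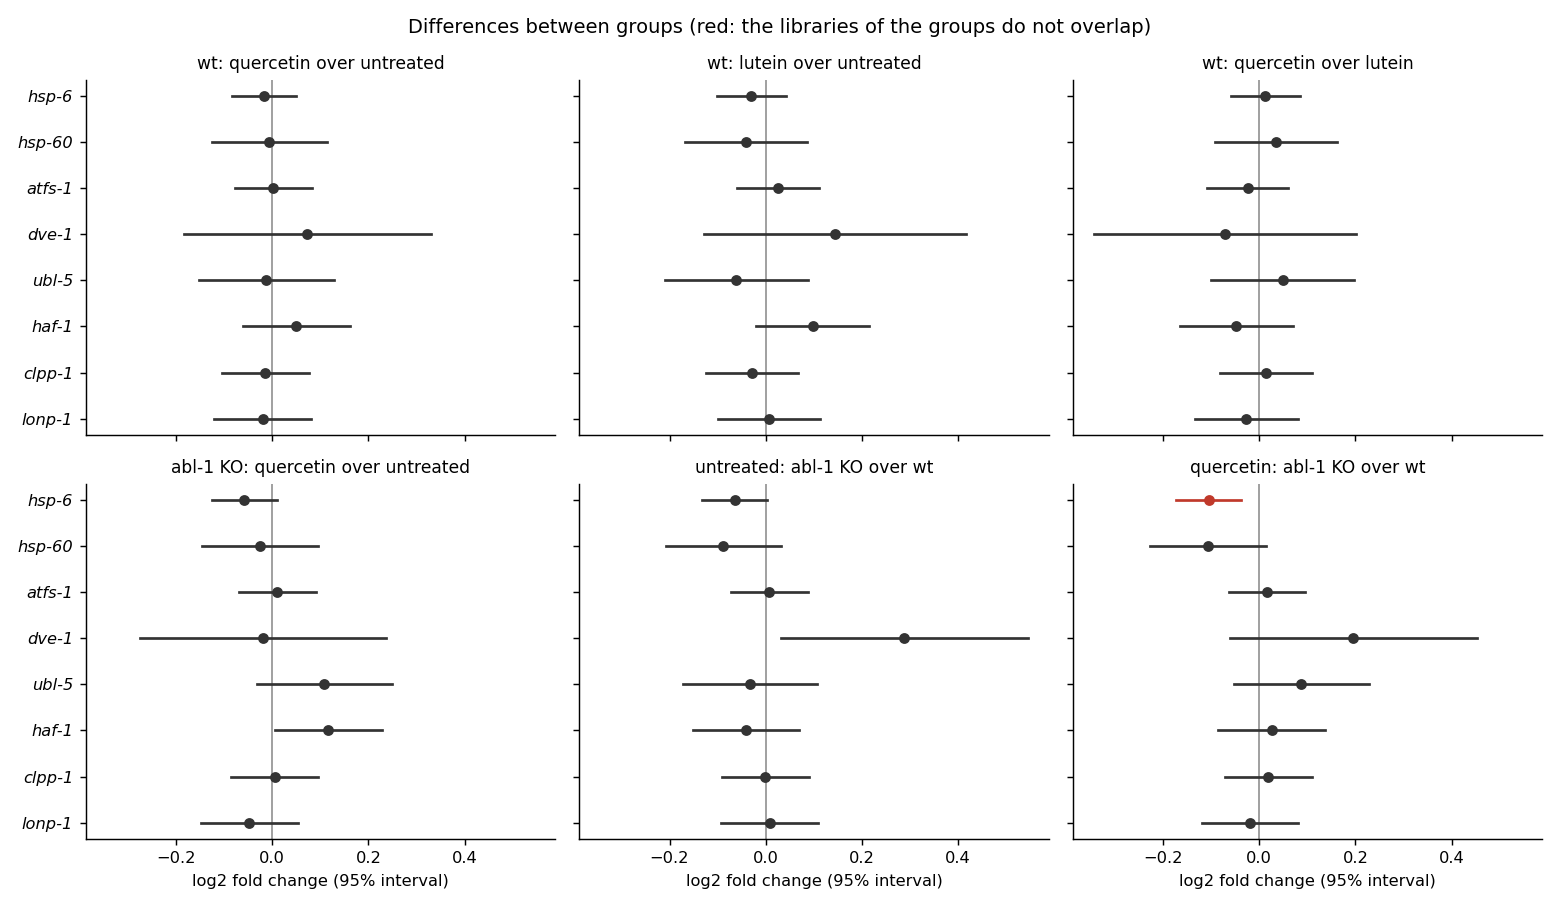
Log2 fold change on log2(RPKM + 0.5) with its 95% interval (horizontal axis) for each member (vertical axis) in 6 comparisons, each titled with the group on top of the fold change first. The 1 red entry, *hsp-6* in quercetin-fed *abl-1* KO over quercetin-fed wt animals at -0.11, is the member whose groups do not overlap, and its adjusted p was 0.291.

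Between the strains, both chaperones were lower and *dve-1* higher on average in *abl-1* KO animals, without a call. Untreated *abl-1* KO against untreated wt animals gave 0 of 8 member calls by limma, where 0.478% of tested genes were called (61 genes), 1 of 8 at an unadjusted p under 0.05, as had 11.1% of tested genes, and 0 of 8 separated members, where 2.09% of tested genes separated. *hsp-6* averaged 252 ± 9.64 RPKM in untreated *abl-1* KO and 264 ± 12.76 RPKM in untreated wt animals (SD, 5 libraries each), giving a log2 fold change of -0.06 (SE 0.03, limma adjusted p = 0.486). *hsp-60* averaged 225 ± 12.4 RPKM in untreated *abl-1* KO and 239 ± 21.2 RPKM in untreated wt animals (SD, 5 libraries each), giving a log2 fold change of -0.09 (SE 0.06, limma adjusted p = 0.585). The groups of both chaperones overlapped. Within replicate numbers each was lower in *abl-1* KO animals in 4 of 5 pairs (exact sign-flip permutation p = 0.125 for each). Libraries of these groups that share a number deviated together, and with the number as a replicate block limma called 466 genes in place of 61 and again 0 of 8 members, with adjusted p of 0.160 for *hsp-6*, 0.142 for *hsp-60* and 0.131 for *dve-1*.

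*dve-1* was the member with the largest strain difference. It was at 3.92, 5.50, 3.36, 3.08 and 2.99 RPKM in untreated *abl-1* KO animals, against 3.01, 3.32, 2.88, 2.71 and 2.75 RPKM in untreated wt animals. Replicate 2 of the KO was far above the rest, and it was also the library with the most sperm RNA. The log2 fold change was 0.29 (SE 0.12, limma unadjusted p = 0.0293, adjusted p = 0.400), with an exact permutation p of 0.0476. Within numbers it was higher in *abl-1* KO animals in 5 of 5 pairs (exact sign-flip permutation p = 0.0625, the smallest that 5 pairs allow). Without replicate 2 of the KO the log2 fold change was 0.16 (SE 0.10, limma adjusted p = 0.920). The other members, *atfs-1*, *ubl-5*, *haf-1*, *clpp-1* and *lonp-1*, had log2 fold changes between -0.04 and 0.01.

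On quercetin, *hsp-6* was the one member whose strains separated. Its 5 libraries of *abl-1* KO animals on quercetin (239 to 244 RPKM) all lay below the 5 of wt animals on quercetin (253 to 267 RPKM), with group means of 242 ± 1.82 and 261 ± 6.16 RPKM (SD, n = 5 each). The log2 fold change was -0.11 (SE 0.03), a fold of 0.930 with a 95% interval of 0.887 to 0.974. The exact two-sided permutation p was 0.00794, the smallest that 5 against 5 libraries can give, but the limma adjusted p was 0.291 (unadjusted 0.00375). Thus 0 of 8 members were called, and 1 of 8 had an unadjusted p under 0.05, as did 8.18% of tested genes. Of all tested genes 0.485% were called (62 genes). 1 of 8 members was separated, where 1.68% of tested genes were, 0.587% with the KO lower. *hsp-60* had a log2 fold change of -0.11 with overlapping groups (SE 0.06, limma adjusted p = 0.657) and *dve-1* one of 0.20 (SE 0.12, limma adjusted p = 0.717). The 2 strain comparisons have no library in common, but each shares its libraries with the quercetin comparisons.

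After the values of *hsp-6* had been seen, the strain difference was averaged over quercetin-fed and untreated animals, 10 libraries of *abl-1* KO against 10 of wt. All 10 *abl-1* KO libraries lay below the wt median for *hsp-6*, with a median of 243 RPKM (239 to 262) in *abl-1* KO and 264 RPKM (247 to 277) in wt animals. The log2 fold change was -0.08 (SE 0.02, limma adjusted p = 0.0497), and the exact permutation p, with libraries exchanged within a treatment (63504 regroupings), was 0.00202. Thus 1 of 8 members was called, where 2.53% of tested genes were called (323 genes), 0.76% with the KO lower. The call sat at the threshold. With each of 20 libraries left out in turn the adjusted p ranged between 0.0191 and 0.102, and 14 of these 20 settings ended the call. All 10 *abl-1* KO libraries also lay below the wt median for *hsp-60*, with a median of 222 RPKM (200 to 241) in *abl-1* KO and 242 RPKM (214 to 262) in wt animals. Its log2 fold change was -0.10 (SE 0.04, limma adjusted p = 0.215, exact permutation p = 0.0423). *dve-1* went the other way, with a median of 3.57 RPKM in *abl-1* KO and 3.06 RPKM in wt animals and a log2 fold change of 0.24 (SE 0.09, limma adjusted p = 0.150, exact permutation p = 0.0119). With the replicate number as a block, limma called all 3 of these members and 1550 genes, with adjusted p of 0.00432 for *hsp-6*, 0.0102 for *hsp-60* and 0.0375 for *dve-1*. The numbers paired the untreated libraries of the strains but not the quercetin-fed ones.

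Marker levels stood as follows beside the *hsp-6* difference on quercetin. The 6 germline markers summed to 2747 to 2909 RPKM (median 2796) in *abl-1* KO animals on quercetin, against 2794 to 2913 RPKM (median 2880) in wt animals on quercetin. The cuticle collagens (157 genes) summed to 21914 to 28690 RPKM (median 25822) in *abl-1* KO animals on quercetin, against 19307 to 29403 RPKM (median 22561) in wt animals on quercetin. Muscle markers (5 genes) were at 404 to 548 RPKM (median 494) in *abl-1* KO animals on quercetin, against 401 to 534 RPKM (median 429) in wt animals on quercetin. The germline median was thus lower, and those of collagens and muscle higher, in the KO.

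In the same groups, intestine markers (6 genes) were at 408 to 548 RPKM (median 458) in the KO and 375 to 516 RPKM (median 430) in wt animals, and neuron markers (6 genes) at 166 to 197 RPKM (median 176) in the KO and 171 to 175 RPKM (median 174) in wt animals. The 6 vitellogenins, yolk proteins made in the intestine, summed to 15638 to 16789 RPKM (median 16520) in the KO and 16331 to 17337 RPKM (median 16698) in wt animals. Sperm RNA had a median of 272 RPKM in the KO and 96.7 RPKM in wt animals. The ranges of all 7 lists overlapped, 1 of the 31 sperm genes and no gene of the other lists was at 0 in every library, and their part in the *hsp-6* difference was not tested.

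The level of *hsp-6* relative to *hsp-60* differed between groups by less than its spread. The ratio averaged 1.10 ± 0.07 in *abl-1* KO animals on quercetin and 1.10 ± 0.06 in wt animals on quercetin (SD, n = 5 each), and the exact permutation p of the 6 comparisons lay between 0.619 and 0.952. Against *hsp-3*, an Hsp70 of the endoplasmic reticulum chosen for this after its values were seen, the order of levels differed. *hsp-6* was above *hsp-3* in 5 of 5 wt libraries on quercetin, 4 of 4 on lutein, 0 of 5 *abl-1* KO libraries on quercetin, 3 of 5 untreated *abl-1* KO libraries and 5 of 5 untreated wt libraries. Against *hsp-4* and *hsp-1*, named here outside the rule, the order was the same in all 24 libraries. The ratio of *hsp-6* was 1.14 to 1.35 over *hsp-4* and 0.145 to 0.183 over *hsp-1*. *hsp-3* was called higher in *abl-1* KO animals, with 250 ± 5.28 RPKM in *abl-1* KO and 231 ± 7.64 RPKM in wt animals on quercetin (SD, n = 5 each, limma adjusted p = 0.0235). Without treatment it was at 252 ± 4.65 RPKM in *abl-1* KO and 228 ± 4.76 RPKM in wt animals (SD, n = 5 each, limma adjusted p = 0.00248).

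Within a group, the members differed in their spread from library to library. Spread is given here as the SD of log2(RPKM + 0.5) within groups, set beside tested genes whose mean lay within 1 log2 unit. The genes were matched on RPKM and not on reads. *ubl-5*, with 327 bp of exon, had a median of 726 estimated reads, and *haf-1* had 312. The part of counting error in these spreads was not tested. *haf-1* had an SD of 0.07, against a median of 0.17 at its level, and only 2.06% of 2773 such genes had a smaller one. *hsp-6* had an SD of 0.05, against a median of 0.07, with 22.3% of 651 genes below it. *ubl-5* and *hsp-60* were looser than most genes of their level, with SDs of 0.11 and 0.10 and 87.6% and 79.9% of genes below them. *dve-1* had the largest SD of the 8, 0.20, near the median of 0.19 at its level. *atfs-1*, *clpp-1* and *lonp-1* fell in the middle, with 38.2% to 59.4% of genes below them.

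**Figure D3:**
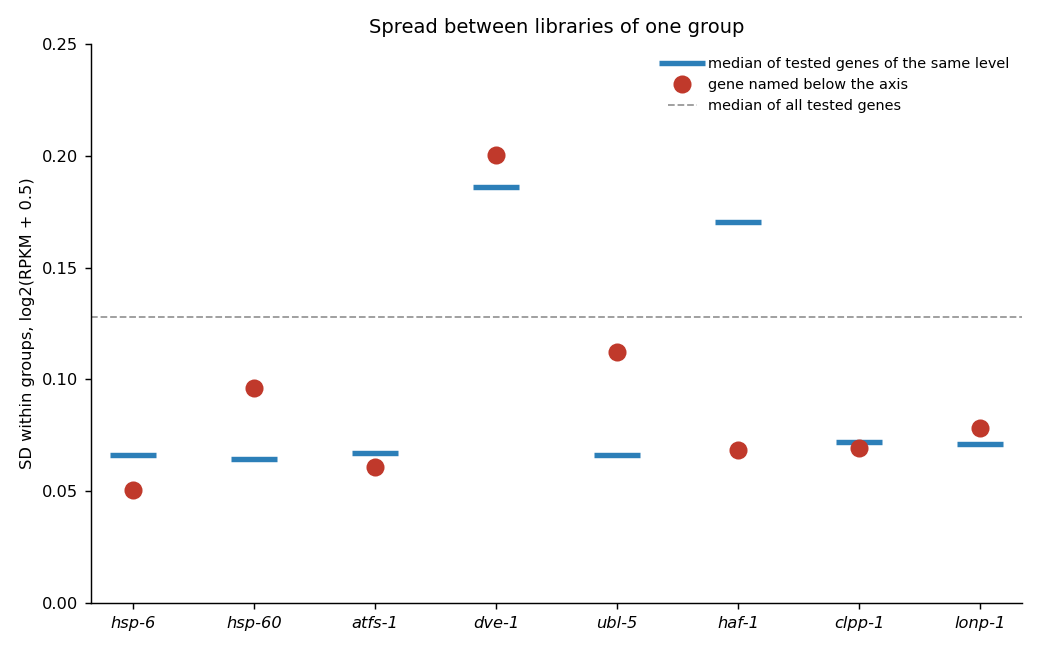
SD of log2(RPKM + 0.5) within groups (vertical axis) for each member (red points, horizontal axis), with the median of tested genes of the same level (blue bars) and of all tested genes (dashed line, 0.13). *haf-1* sits far under its blue bar, and *ubl-5* and *hsp-60* sit above theirs.

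The deviations of the members from their group means were then compared across the 24 libraries, for 28 pairs, by permutation within groups with Benjamini-Hochberg adjustment over the pairs. *hsp-6* and *lonp-1* deviated together, with r = 0.72 (rho 0.67, permutation p = 0.00052, adjusted p = 0.00784) and r = 0.64 without the 2 libraries farthest from the median of *hsp-6*. *atfs-1* and *dve-1* did so too, with r = 0.66 (rho 0.66, permutation p = 0.00084, adjusted p = 0.00784) and r = 0.66 without the 2 farthest. *hsp-60* deviated against both regulators, with r = -0.62 for *dve-1* (rho -0.58, permutation p = 0.00064, adjusted p = 0.00784, r = -0.71 without the 2 farthest) and r = -0.65 for *atfs-1* (rho -0.51, permutation p = 0.00214, adjusted p = 0.015, r = -0.67 without the 2 farthest). For *hsp-60* and *atfs-1* the rho had an adjusted p of 0.0846. The chaperone pair *hsp-6* and *hsp-60* had r = 0.55 (rho 0.56, permutation p = 0.0158, adjusted p = 0.0886, r = 0.45 without the 2 farthest), and the other 23 pairs had adjusted p of at least 0.125.

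These relations depended to different degrees on the replicate numbers that the groups share. *atfs-1* averaged 62.6 RPKM in the 5 libraries numbered 2, against 57.5 to 58.7 RPKM for the other numbers, and it was highest there in 4 of 5 groups, while *hsp-60* was lowest there in 4 of 5 groups. With the 5 libraries numbered 2 left out, a choice made after this was seen, r for *hsp-60* and *atfs-1* was -0.13 over 19 libraries, so that relation rested on them. The other r values were then 0.72 for *hsp-6* and *lonp-1*, -0.54 for *hsp-60* and *dve-1* and 0.46 for *atfs-1* and *dve-1*, and 0 of 28 pairs passed (permutation, adjusted p of 0.0669, 0.0669 and 0.544 for these 3). After subtracting the mean of each number as well, r was 0.52 for *hsp-6* and *lonp-1* and 0.48 for *atfs-1* and *dve-1*. For *hsp-60* it was then -0.15 with *dve-1* and -0.20 with *atfs-1*. By permutation 0 of 28 pairs passed, with adjusted p of 0.207, 0.274, 0.645 and 0.590 for these pairs in the same order. A single number holds 4 or 5 libraries, too few for a correlation within it.

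**Figure D4:**
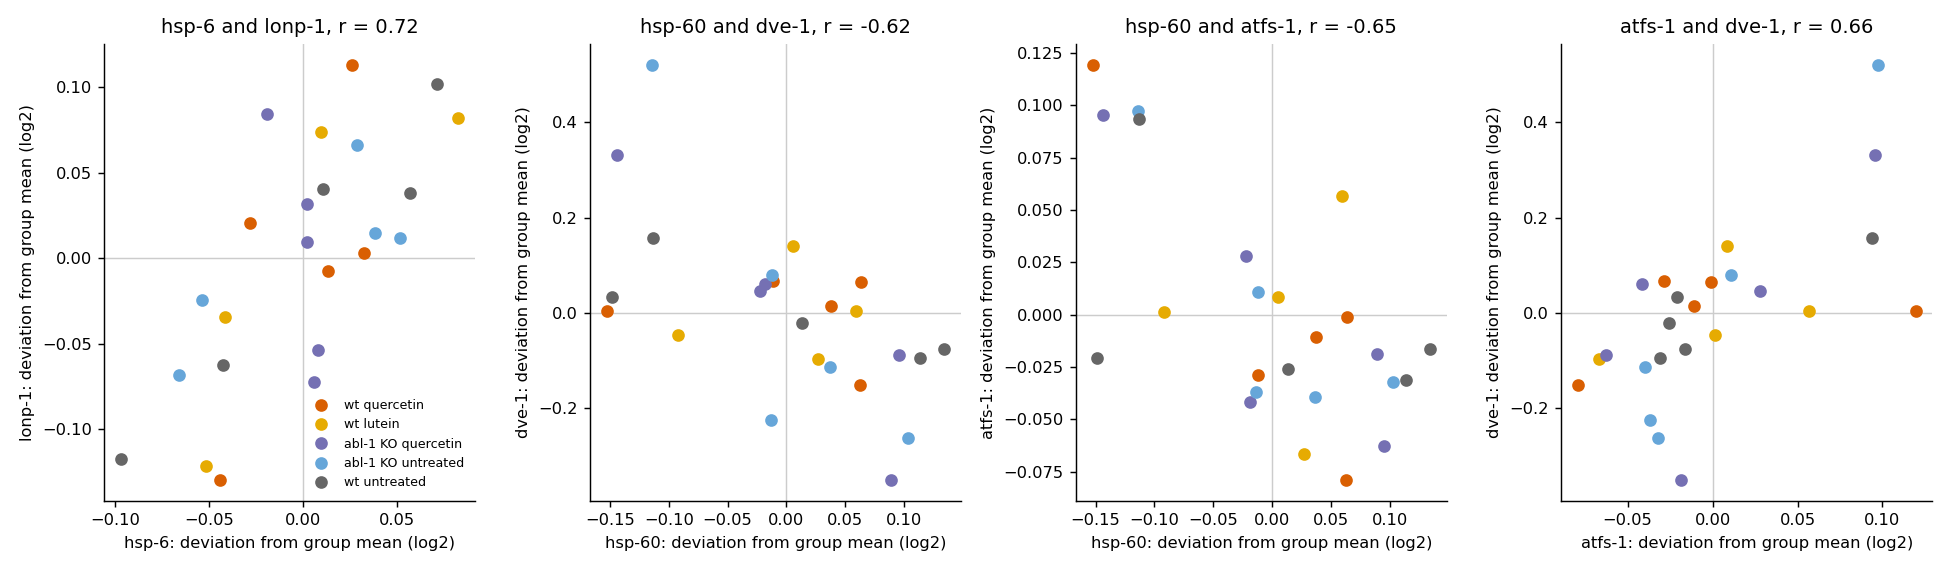
Deviation of each library from its group mean, in log2 units on both axes, for the 4 member pairs with an adjusted permutation p of at most 0.05; colours mark the 5 groups. In the *hsp-60* and *atfs-1* panel 4 libraries sit apart at the upper left, and they carry the number 2 in their groups.

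Some tissue markers followed the replicate number too. Intestine markers summed to 477 to 551 RPKM in the 10 libraries numbered 1 and 2 and to 374 to 458 RPKM in the 14 libraries numbered 3 to 5, with no overlap. In the same libraries germline markers summed to 2698 to 2806 RPKM and 2796 to 2972 RPKM. The ranges of the other lists overlapped, as for neuron markers (171 to 197 and 165 to 183 RPKM) and vitellogenins (15308 to 17337 and 15955 to 17036 RPKM). This split of the numbers is not given by the labels. Over the 24 libraries 13 of 56 pairs of a member and a summed marker list passed by r (permutation within groups, adjusted p of at most 0.05), of which *hsp-6* had 4, *hsp-60* 3, *lonp-1* 3, *dve-1* 2 and *atfs-1* 1. These r include the difference between the numbers. *hsp-6*, for example, had r = 0.65 with germline markers and -0.68 with cuticle collagens (rho 0.65 and -0.71, adjusted permutation p = 0.0422 and 0.0213).

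After the mean of each number was subtracted as well, a step chosen after this was seen, 3 of 56 pairs passed, and none of them involved *hsp-6*, *hsp-60*, *atfs-1*, *clpp-1* or *lonp-1*. The permutations exchanged libraries within groups only and took no account of this subtraction. The p of these 3 pairs may therefore be too small, and whether they would pass otherwise was not tested. *dve-1* had r = -0.72 with the vitellogenins (rho -0.67, adjusted permutation p = 0.026, r = -0.66 without the 2 libraries farthest from the median of the marker sum), against r = -0.67 before it (rho -0.55, adjusted permutation p = 0.0339). *ubl-5* had r = -0.69 with intestine markers (rho -0.74, adjusted permutation p = 0.026, r = -0.75 without the 2 farthest). *haf-1* had r = 0.70 with neuron markers (rho 0.74, adjusted permutation p = 0.0476, r = 0.64 without the 2 farthest). For *hsp-60* and muscle markers r was 0.51 after the subtraction (adjusted permutation p = 0.131), against -0.57 before it (adjusted permutation p = 0.0447). Whether tissue content sets the levels of these genes was not tested.

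**Figure D5:**
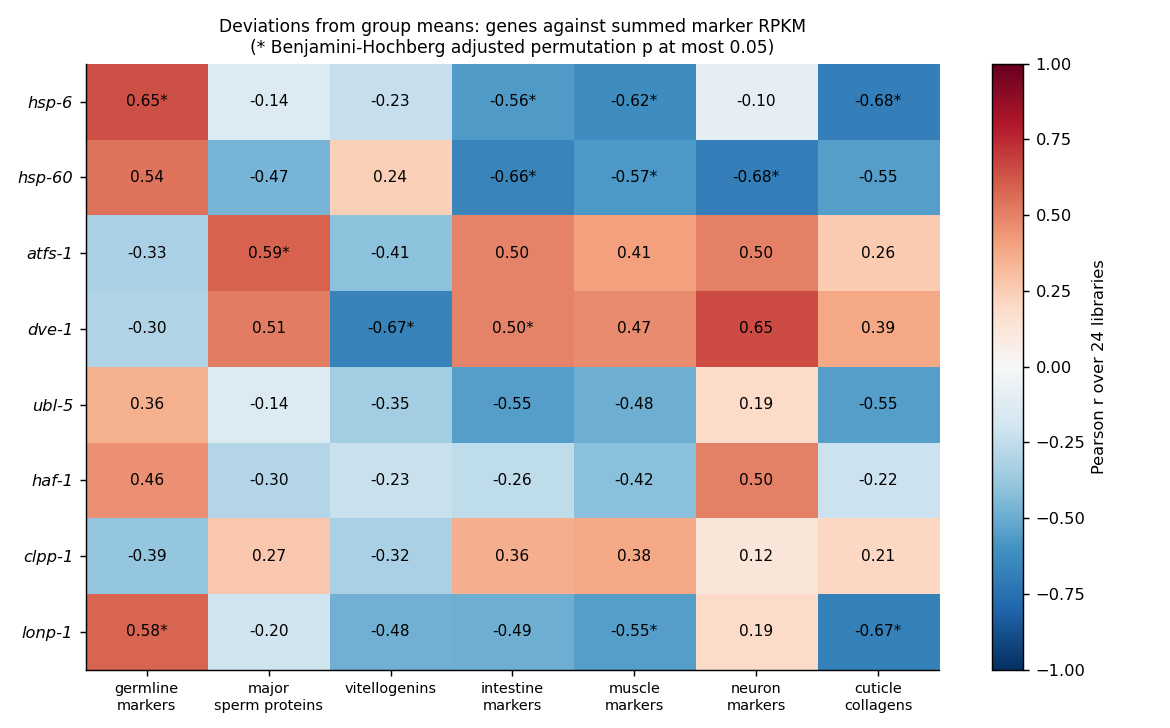
Pearson r over 24 libraries between the deviation of each member (rows) and the deviation of the summed RPKM of 7 marker lists (columns), with the value printed in each cell and a colour scale from -1 (blue) to 1 (red). Asterisks mark an adjusted permutation p of at most 0.05, before the means of the replicate numbers were subtracted; *hsp-6* and *lonp-1* share the sign of r with germline markers and collagens, and *haf-1*, *clpp-1* and *ubl-5* have no asterisk.

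Among all tested genes outside the members, those whose deviations were most like each member's are given as a description, with r over the 24 libraries. These r are the highest out of all those genes, so they are large by selection. They also include the difference between the replicate numbers. For *hsp-6* they were *eif-2alpha* (0.85), *clu-1* (0.85) and *csr-1* (0.82), and for *hsp-60* they were *glh-1* (0.94), *hrp-2* (0.94) and *glh-4* (0.93). For *lonp-1* they were *cid-1* (0.92), *tin-44* (0.91) and *ogt-1* (0.91). For *atfs-1* they were *fipr-22* (0.91), *nlp-31* (0.90) and *T07E3.4* (0.89), and for *dve-1* they were *pqn-18* (0.92), *ras-1* (0.88) and *cal-1* (0.88). *ubl-5* was most like *chn-1* (0.84) and *haf-1* most like *tag-294* (0.86). *clpp-1* had the weakest nearest gene, *Y106G6E.4* (0.75).

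In the quercetin comparison in wt animals and in that in *abl-1* KO animals, limma called 0 genes higher and 0 lower of the 6 other mitochondrial chaperones, 10 tested inner membrane proteases and prohibitins, 15 protein import genes, 18 other regulators of the response, 12 tested genes reported as induced by mitochondrial stress, 11 tested genes of mitochondrial dynamics and mitophagy, and 42 genes of the respiratory chain. Of the 108 genes in these lists, 0 in wt and 1 in *abl-1* KO animals had an unadjusted p under 0.05, as had 1.35% and 1.82% of all tested genes. The median log2 fold change of each of these lists lay between -0.02 and 0.004 in both strains, beside 0.01 over all tested genes in wt and -0.0040 in *abl-1* KO animals. The histone deacetylase gene *hda-1*, reported as a regulator of the response, was at 130 ± 1.61 RPKM with quercetin and 126 ± 2.598 RPKM without it in *abl-1* KO animals (SD, n = 5 each), giving a log2 fold change of 0.04 (SE 0.02, limma adjusted p = 1). Lutein in wt animals likewise left 0 of the 108 genes called by limma, with 2 at an unadjusted p under 0.05, beside 1.64% of all tested genes.

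Between untreated *abl-1* KO and wt animals limma called 0 of these 108 genes either, with 5 at an unadjusted p under 0.05, beside 11.1% of all tested genes. Of the 15 protein import genes 12 lay above and 3 below their level in wt animals, and the list had a median log2 fold change of 0.04, beside 62.2% of all tested genes above and a median of 0.03. *tomm-22*, part of the import pore complex of the outer membrane, was at 127 ± 5.01 RPKM in untreated *abl-1* KO and 118 ± 4.88 RPKM in untreated wt animals (SD, 5 libraries each), giving a log2 fold change of 0.11 (SE 0.04, limma adjusted p = 0.254). *miro-1*, a mitochondrial GTPase of the outer membrane, was at 41.3 ± 2.48 RPKM in untreated *abl-1* KO and 43.9 ± 0.79 RPKM in untreated wt animals (SD, 5 libraries each), giving a log2 fold change of -0.09 (SE 0.03, limma adjusted p = 0.325). The respiratory chain list had 28 genes above and 14 below, with a median of 0.01. On quercetin, 12 of 15 import genes again lay above their level in wt animals, with a median of 0.04 beside 0.02 over all tested genes.

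The unfolded protein responses of other compartments were set beside these. Of 17 genes of the endoplasmic reticulum response, 1 was called higher and 0 lower in *abl-1* KO animals, both without treatment and on quercetin, and in each case it was *hsp-3*. Of all tested genes 0.478% were called without treatment and 0.485% on quercetin. In each comparison 5 of the 17 had an unadjusted limma p under 0.05, beside 11.1% and 8.18% of all tested genes. *xbp-1*, a transcription factor of that response, was at 131 ± 16.9 RPKM in untreated *abl-1* KO and 114 ± 8.99 RPKM in untreated wt animals (SD, 5 libraries each), giving a log2 fold change of 0.19 (SE 0.06, limma adjusted p = 0.223). Of 21 tested cytosolic heat shock genes 0 were called by limma in any of the 6 comparisons. At most 4 had an unadjusted p under 0.05, between the strains on quercetin, beside 8.18% of all tested genes there. On quercetin the heat shock list had 6 genes above and 15 below in *abl-1* KO against wt animals, and their median log2 fold change was -0.08. Of all tested genes 58.5% lay above in that comparison, with a median of 0.02.

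By position on the WBcel235 assembly the members are scattered. *hsp-6* lies on chromosome V at 4824124 to 4826760 (minus strand, 2460 bp of exon) and *atfs-1* on the same chromosome at 14193663 to 14197700 (plus strand, 1926 bp). *hsp-60* lies on chromosome III at 1619742 to 1625803 (plus strand, 2121 bp), *dve-1* on X at 427035 to 433812 (minus strand, 3319 bp) and *haf-1* on IV at 17376427 to 17379310 (plus strand, 2108 bp). *clpp-1* lies on II at 10300714 to 10302842 (minus strand, 791 bp). *ubl-5* lies on chromosome I at 5607826 to 5608841 (minus strand, 327 bp) and *lonp-1* on the same chromosome at 10676922 to 10682374 (minus strand, 3059 bp). The nearest gene in front of *hsp-60* is *Y22D7AL.10*, 812 bp away at 1617151 to 1618929 on the opposite strand. It was at 301 RPKM over all libraries, and its deviations had r = -0.39 with those of *hsp-60* (rho -0.32, permutation p = 0.0419, adjusted p = 0.168 over 8 members, r = -0.25 without the 2 farthest libraries).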

How the data were processed

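Whole-worm RNA of 24 libraries was prepared with a stranded mRNA kit and sequenced. Per the submitters' notes, reads were demultiplexed with bcl2fastq (2.20.0.422) and mapped to WBcel235; the authors used CLC Genomics Workbench. The deposited RPKM values were made by the authors from reads per gene, exon length and mapped reads, for 20191 genes. The sources used here do not give how multi-mapped reads or strand were handled. The sample labels gave groups and numbers. They name the mutant strain NV50, and the published sequencing methods name NV51.

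Genes with at least 0.5 RPKM in at least 4 libraries (12771) were fitted as log2(RPKM + 0.5) in 5 groups with limma (3.58.1, R 4.3.3), with a variance trend, two-sided tests and Benjamini-Hochberg adjustment over all tested genes, called at an adjusted p of at most 0.05. A fold change on this scale understates the change of low genes. The fit was tested on simulated data with noise drawn independently for each library. That test did not hold the deviations shared by libraries of a number, so it does not cover them. Two-sided exact permutation tests were run for single members (smallest p 0.00794). Deviations of same-numbered libraries from their group means, over all tested genes, correlated at over 0.1 in every pair for 4 of the 6 comparisons (the 3 within wt animals and that of untreated strains), whose numbers were taken as pairing. The other 2 were not paired. The labels give the numbers but no pairing, and 15 of 24 libraries correlated best with their own number. Pair correlations used 100000 permutations within groups. Positions and exon lengths were read from a later WBcel235 annotation, which held 18971 of the gene names. Low RPKM multiplied by exon length gave the depth estimates, and of these low values 49.4% to 56.9% per library lay within 0.1 of a whole read; since too few were whole, no count model was run and no counting interval was derived.

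The members and lists were chosen with earlier results of these data known. Beside the 8 members, genes were picked by a rule, the 2 with the smallest adjusted p of each list in the quercetin comparisons and the untreated strain comparison, any called gene, and the 3 genes most like each member. Only some of the genes so picked are named in the text. Genes named outside the rule are marked. Alternatives were other pseudocounts (1 and 0.1), no filter or a stricter one (2 RPKM), library scaling by median of ratios or trimmed mean of M values, no variance trend, a fit of only the libraries compared, a replicate block, and libraries left out.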

Additional observations from a re-analysis of the deposited data

Results flagged for a closer look

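The highest and lowest library of each group was compared with the others of its group for each member, by Dixon's criterion at 95%, in 40 combinations of member and group, of which about 2 would stand apart by chance. In 3 combinations a library stood apart. *hsp-6* was at 239.3 RPKM in *abl-1* KO quercetin replicate 4, against 242.8 to 243.8 RPKM in the other libraries of that group. Without this library the log2 fold change of *abl-1* KO against wt on quercetin was -0.10 (limma adjusted p = 0.377). *haf-1* was at 4.557 RPKM in *abl-1* KO untreated replicate 4, against 3.99 to 4.13 RPKM in the others. *atfs-1* was at 62.66 RPKM in wt untreated replicate 2, against 57.4 to 58.0 RPKM in the others.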

How the results depend on the processing

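Of 1274 values of single members under the alternatives, 82 changed sign, 66 of them with 1 library left out, and the largest of these 82 was 0.11 in size, so a sign near 0 carries little. The cause of these changes was not tested. With libraries rescaled by the median of ratios, the log2 fold change was -0.0040 for *atfs-1* and quercetin in wt animals, -0.0048 for *lonp-1* and lutein, -0.028 for *atfs-1* and -0.027 for *lonp-1* between untreated strains, and -0.0057 for *atfs-1* and -0.0030 for *clpp-1* between strains on quercetin. With trimmed means of M values the same 6 values were -0.0048, -0.0010, -0.021, -0.021, -0.0038 and -0.0011. The 2 libraries left out for their sperm RNA were wt quercetin replicate 4 (337 RPKM) and *abl-1* KO untreated replicate 2 (620 RPKM). Replicates 2 and 3 of quercetin-fed *abl-1* KO animals, at 442 and 372 RPKM, stayed in. Without the 2 libraries, *dve-1* was at 0.11 for quercetin in *abl-1* KO animals. For the quercetin effect in *abl-1* KO minus that in wt animals it was at 0.054. Between untreated strains *atfs-1* was then at -0.017 and *lonp-1* at -0.0086.

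With single libraries left out, the log2 fold changes of members that changed sign ran as follows. For quercetin in wt animals, -0.041 to 0.00084 for *hsp-6*, -0.043 to 0.032 for *hsp-60*, -0.028 to 0.026 for *atfs-1*, -0.059 to 0.051 for *ubl-5*, -0.034 to 0.0100 for *clpp-1* and -0.049 to 0.012 for *lonp-1*. For lutein in wt animals, -0.023 to 0.047 for *lonp-1*. For quercetin against lutein, -0.0042 to 0.041 for *hsp-6*, -0.0067 to 0.041 for *clpp-1* and -0.067 to 0.0057 for *lonp-1*. For quercetin in *abl-1* KO animals, -0.054 to 0.011 for *hsp-60*, -0.013 to 0.035 for *atfs-1*, -0.10 to 0.11 for *dve-1* and -0.026 to 0.034 for *clpp-1*. For untreated *abl-1* KO against untreated wt animals, -0.017 to 0.031 for *atfs-1*, -0.080 to 0.0026 for *ubl-5*, -0.029 to 0.030 for *clpp-1* and -0.021 to 0.033 for *lonp-1*. For *abl-1* KO against wt animals on quercetin, -0.0077 to 0.046 for *atfs-1*, -0.0046 to 0.050 for *haf-1*, -0.0043 to 0.038 for *clpp-1* and -0.052 to 0.0091 for *lonp-1*. For the quercetin effect in *abl-1* KO minus that in wt animals, -0.057 to 0.018 for *hsp-60*, -0.015 to 0.039 for *atfs-1*, -0.18 to 0.038 for *dve-1*, -0.011 to 0.048 for *clpp-1* and -0.060 to 0.0023 for *lonp-1*. Counts of called genes ran from 41 to 66 between untreated strains, 43 to 59 between strains on quercetin and 185 to 406 for both treatments together, and stayed at 0 in the other comparisons. Between 3 and 6 of the 28 member pairs passed: *hsp-60* and *atfs-1* did not without wt quercetin replicate 2 (r = -0.57, permutation, adjusted p = 0.0854) or *abl-1* KO quercetin replicate 2 (r = -0.59, adjusted permutation p = 0.056), and *hsp-6* and *hsp-60* passed without *abl-1* KO untreated replicate 2 (r = 0.63, adjusted permutation p = 0.0359) or replicate 3 (r = 0.62, adjusted permutation p = 0.0358).

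With the replicate number as a replicate block, limma called 466 genes between untreated strains, 252 between strains on quercetin and 1550 for both treatments together, against 61, 62 and 323 without it, and 0 of 28 member pairs and 3 of 56 pairs of a member and a marker list passed, against 13 without it. The permutation p of those 3 pairs may be too small, since libraries were exchanged within groups without regard to number. On quercetin the numbers do not pair the strains (r of -0.61 to 0.50, 2 of 5 over 0.1), nor do they pair the quercetin-fed and untreated *abl-1* KO libraries (r of -0.25 to 0.65, 4 of 5 over 0.1). The block gave *hsp-6* an adjusted p of 0.0316 between strains on quercetin, where the alternatives ranged between 0.0316 and 0.534. For both treatments together it gave adjusted p of 0.00432 for *hsp-6*, 0.0102 for *hsp-60* and 0.0375 for *dve-1*. It changed no other call of a member reported here. A fit of only the libraries compared called 39 genes between untreated strains and 41 between strains on quercetin. Without a filter 1 gene was called for quercetin in wt animals. Without the 2 libraries left out for sperm RNA, 151 were called for both treatments together. There the call of *hsp-6* was also lost with a pseudocount of 0.1 (limma adjusted p = 0.0506), no filter (0.068) or no variance trend (0.074). It was lost as well with only the libraries compared (0.0556) and without the 2 libraries left out for sperm RNA (0.117). Under median of ratios 3 of 28 pairs passed, with *hsp-6* and *hsp-60* at r = 0.79 (adjusted permutation p = 0.00056), *hsp-60* and *atfs-1* at -0.36 (0.286) and *atfs-1* and *dve-1* at 0.37 (0.264). With libraries numbered 2 left out, 0 passed. RPKM keep no counts, so counting error could not be given per value.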
